A study of Mus musculus with 6 samples.

Results

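The interferon response and major histocompatibility complex (MHC) genes were examined in mature adipocytes (AC) and in dedifferentiated fat (DFAT) cells of the mouse. Members were chosen by name alone, as the probe sets with 1 annotated gene symbol that begins with Ifi, Oas, Isg or H2-, that begins with Irf, Gbp or Stat followed by a digit, or that is Tap1, Tap2 or B2m. The rule took 143 of the 45037 probe sets tested, which stand for 87 of the 18193 genes with such a probe set. AC were adipocytes isolated from fat tissue, and 3 arrays measured them. DFAT cells, also on 3 arrays, were a preadipocyte line that ceiling culture gave from adipocytes of GFP transgenic mice. Growth to semiconfluence is described for the cultures that were to be differentiated. In ceiling culture floating adipocytes attach to the upper wall of a filled flask, lose their lipid and begin to divide. No treatment was given to either group in the sources used here, which also state neither strain nor age. A GFP transgene was not named for AC. The sources do not say if a group's arrays stand for different animals or cultures, and the p-values therefore rest on a spread among arrays that may be technical.

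Interferons bind receptors whose Janus kinases phosphorylate STAT proteins, and these, with interferon regulatory factors (IRF), switch on genes that carry response elements in their promoters. The products include antiviral effectors, such as the IFIT and OAS proteins, guanylate-binding proteins that attack vacuoles of pathogens, and the parts of the MHC class I pathway, which shows peptides of the cell's own proteins on nearly every cell type. MHC class II, which shows peptides taken up from outside, belongs to macrophages, dendritic cells and B cells, and interferon gamma can induce it in other cells, adipocytes among them.

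Of the 143 member probe sets, 83 were lower in DFAT cells than in AC at an adjusted p under 0.05, where 18.1% of all probe sets tested were lower, and 9 were higher, where 20.3% of all were. Counted as genes, each represented by the probe set of highest mean signal, 52 of 87 were lower (23.8% of all genes) and 7 were higher (22.6% of all genes). The counts of genes by role and list below stand beside these same shares of all genes. The median difference of the member genes was -0.83 on the log2 scale and that of all genes was -0.10. At least 4-fold lower were 30 members, against 6.65% of all genes, and 2, Irf5 and H2-M9, were at least 4-fold higher. The AC and DFAT arrays did not overlap in 67 of the 87 genes, and in 60% of all genes. In 28 members both groups were at the background level defined below, and 12 of these were among the lower calls. Guanylate-binding proteins had the lowest median of the roles, at -5.54, and the peptide transport and light chain genes followed at -3.08. The IFITM family was at -0.31 and the p200 family at -0.45, and 6 further genes, sorted by symbol into no other role, were at -0.11.

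**Figure D1:**
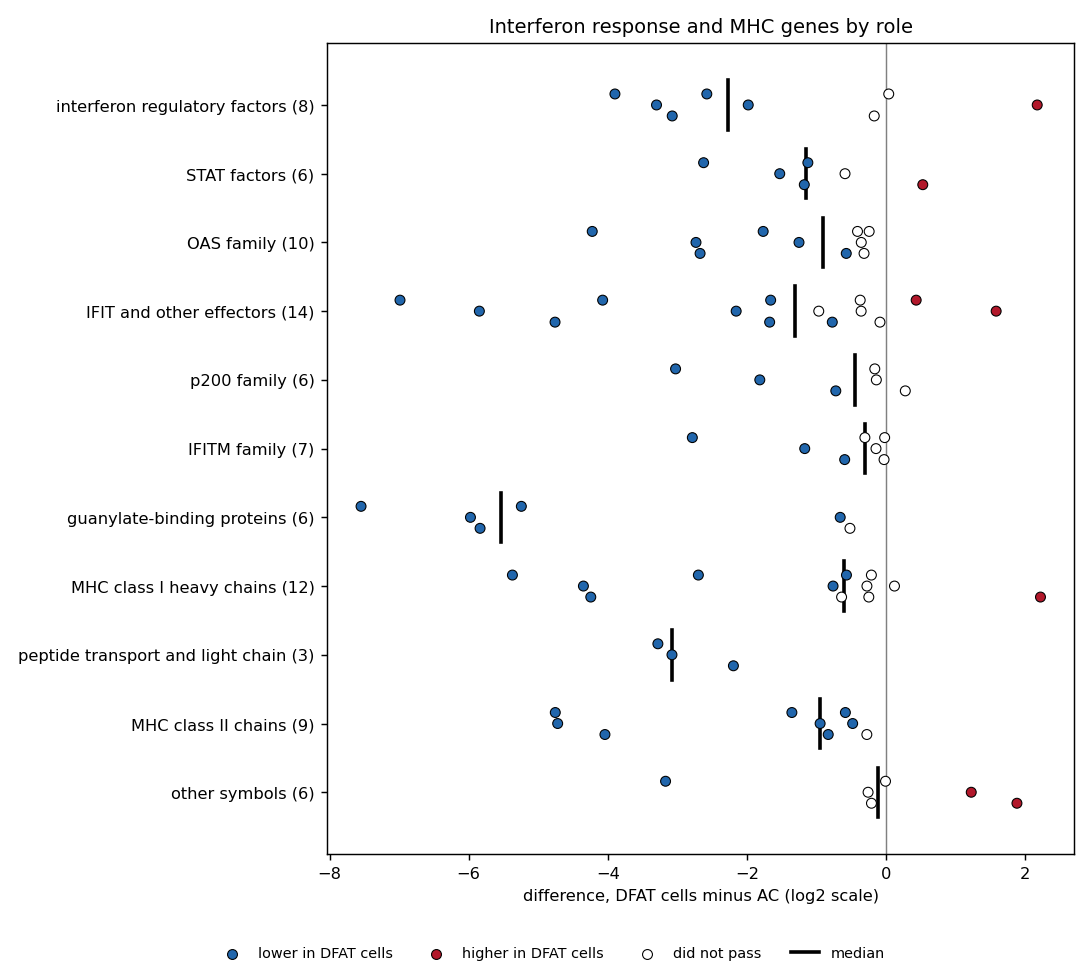
Log2 difference between DFAT cells and AC (horizontal axis) of each of the 87 member genes, by role (vertical axis, with the number of genes), with 1 point per gene, filled where it passed the test, and a bar at the median of the role. Points reach from -7.55 for Gbp2 to 2.22 for H2-M9, and 7 of the 59 filled points lie on the side of higher values in DFAT cells.

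The values were RMA values on the log2 scale, with array medians of 5.09, 4.98 and 5.11 on the AC arrays against 4.92 to 4.94 on the DFAT arrays. The array of AC replicate 1 stood apart from the other AC arrays (Pearson correlations over probe sets of 0.971 and 0.969, against 0.991 between the others and 0.995 to 0.996 among the DFAT arrays). On it 18 of 18 endothelial markers were highest and 17 of 18 macrophage markers lowest among the AC arrays. The mean level of the endothelial markers was 9.84 there and 8.06 and 7.94 on the others, and that of the macrophage markers was 6.28, 7.93 and 8.07. On the DFAT arrays these means were 4.52 to 4.53 and 4.16 to 4.24, with 14 endothelial and 16 macrophage markers at the background level, the exceptions among the macrophage markers being Csf1r and Cd14. The background level is the signal of probe sets for genes of sense organs and sperm, 5.98 to 6.22 on the AC arrays, compared with 5.73 to 5.87 on the DFAT arrays. All 13 adipocyte markers were lower in DFAT cells, with means of 12.70 to 12.91 in AC against 6.16 to 6.18 in DFAT cells. Since AC were a preparation from tissue, fewer cells of a type and less RNA per cell cannot be told apart in these values, and the part of macrophages and endothelial cells in the differences below was not tested. Without AC replicate 1, 57 member genes were lower and 7 higher.

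The promoters of several members hold the core of the interferon-stimulated response element, the site bound by IRF9 together with STAT proteins and by other IRF. The letters searched were GAAANNGAA, or TTCNNTTTC on the other strand, in windows of 300 bases from RefSeq (GRCm38.p6), from 250 bases before to 50 after the transcription start. They were found in 24 of 88 member promoters (27.3%), which covered 70 of the 87 genes, and in 8.56% of all 32851 promoters. Among promoters of members lower in DFAT cells 12 of 53 (22.6%) held them, among those of members that did not pass 12 of 28 (42.9%), and among those of higher members 0 of 7. The gamma-activated site TTCNNNGAA, which reads the same on both strands, stood in 15.9% of member promoters and 8.30% of all promoters. Members of a family lie side by side on a chromosome and resemble each other, so these promoters are not independent, and the shares are a description of letters without a test. The 160 bases before the transcription start are printed for 7 members that were lower in DFAT cells and for Ifitm2, which held the letters and did not pass. Each runs in the direction of transcription, and capitals mark the matches, which run together where they overlap:
Ifit1 (chr19:34640729-34640888, + strand): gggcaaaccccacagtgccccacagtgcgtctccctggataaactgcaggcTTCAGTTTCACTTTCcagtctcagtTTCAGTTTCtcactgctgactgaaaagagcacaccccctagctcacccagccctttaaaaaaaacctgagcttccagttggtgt
Ifit3 (chr19:34583369-34583528, + strand): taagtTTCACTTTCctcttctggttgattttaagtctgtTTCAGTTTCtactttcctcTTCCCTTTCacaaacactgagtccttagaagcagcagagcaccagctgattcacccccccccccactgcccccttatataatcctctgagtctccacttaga
Gbp2 (chr3:142620503-142620662, + strand): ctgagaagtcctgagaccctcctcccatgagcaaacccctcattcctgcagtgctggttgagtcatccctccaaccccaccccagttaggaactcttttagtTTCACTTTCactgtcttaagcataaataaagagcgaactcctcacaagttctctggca
Gbp3 (chr3:142559884-142560043, + strand): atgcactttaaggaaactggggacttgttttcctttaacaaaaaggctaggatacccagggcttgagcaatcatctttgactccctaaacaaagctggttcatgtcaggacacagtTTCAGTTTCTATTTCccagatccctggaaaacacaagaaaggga
Gbp7 (chr3:142530176-142530335, + strand): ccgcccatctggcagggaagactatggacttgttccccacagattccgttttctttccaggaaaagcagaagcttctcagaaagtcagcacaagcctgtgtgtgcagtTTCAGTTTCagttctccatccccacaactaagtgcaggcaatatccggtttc
Oas1a (chr5:120907526-120907685, − strand): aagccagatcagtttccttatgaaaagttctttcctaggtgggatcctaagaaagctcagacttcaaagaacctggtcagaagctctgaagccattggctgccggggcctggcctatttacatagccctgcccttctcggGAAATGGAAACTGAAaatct
B2m (chr2:122147527-122147686, + strand): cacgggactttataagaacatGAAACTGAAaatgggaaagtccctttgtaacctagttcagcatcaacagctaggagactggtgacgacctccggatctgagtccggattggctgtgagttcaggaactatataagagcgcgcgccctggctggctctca
Ifitm2 (chr7:140955962-140956121, − strand): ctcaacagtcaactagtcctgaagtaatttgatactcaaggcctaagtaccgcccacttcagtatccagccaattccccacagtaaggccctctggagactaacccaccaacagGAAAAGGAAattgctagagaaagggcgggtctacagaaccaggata
The printed stretch of Ifit1 holds 3 matches between 84 and 109 bases before the start, and that of Ifit3 also holds 3. In Oas1a the nearest match begins 14 bases before the start, and in B2m the match begins 139 bases before it.

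The interferon regulatory factors are the transcription factors that start and carry on the response. Of 8 members, 5 were lower (62.5%, against 23.8% of all genes) and 1 was higher (12.5%, against 22.6% of all genes). Irf1, which interferon gamma induces and which activates MHC class I genes, read 11.52, 12.53 and 12.43 on the AC arrays, compared with 8.24, 8.24 and 8.30 on the DFAT arrays. The lowest AC array was thus far above the highest DFAT array, and the difference was -3.90 (SE 0.26, adjusted p = 1.14e-05). Irf7, the factor that amplifies type I interferon production, had values of 9.36, 8.67 and 8.45 in AC against 5.57, 5.58 and 5.43 in DFAT cells. All 3 DFAT values of Irf7 lay at the background level, at a difference of -3.30 (SE 0.23, adjusted p = 1.53e-05). Irf9, the DNA-binding part of the complex that type I interferon forms, read 7.92, 7.58 and 7.56 in AC, compared with 5.80, 5.70 and 5.61 in DFAT cells, a difference of -1.98 (SE 0.15, adjusted p = 2.43e-05). Its DFAT values were at the background level too.

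Irf4 and Irf8, factors of lymphoid and myeloid cells, were also lower. Irf4, which adipocytes express as well, read 6.34, 6.83 and 7.02 in AC against 3.52, 3.66 and 3.79 in DFAT cells (difference -3.08, SE 0.19, adjusted p = 9.14e-06). Irf8 read 5.79, 7.16 and 7.13 in AC, lowest on the array with the lowest macrophage markers, and 3.74, 4.33 and 4.27 in DFAT cells (difference -2.58, SE 0.37, adjusted p = 0.000854). Irf5, known from myeloid cells, went the other way, from 4.94, 5.48 and 5.51 in AC, at the background level, to 7.54, 7.45 and 7.45 in DFAT cells (difference 2.17, SE 0.18, adjusted p = 3.88e-05). The other probe set of Irf5 differed by 0.14 and did not pass. Irf3, which is present before any interferon and is activated by virus sensing, read 8.92, 8.70 and 8.31 in AC, compared with 8.41, 8.48 and 8.53 in DFAT cells, so that the groups overlapped. Its difference of -0.17 did not pass (95% interval -0.58 to 0.23, adjusted p = 0.483), nor did that of Irf2, a repressor, at 0.04 (-0.25 to 0.33, adjusted p = 0.854). The sign of both depended on the scaling. Centred on reference genes, Irf3 was at -0.82 and Irf2 at -0.61 and both passed, and centred on the hybridization controls they were at 0.29 and 0.50 and did not.

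The STAT factors carry the signal of cytokine receptors to the nucleus. Of 6, 4 were lower (66.7%, against 23.8% of all genes) and 1 was higher (16.7%, against 22.6% of all genes). Stat2, the member most particular to type I interferon, read 6.70, 5.88 and 6.04 in AC against 4.77, 4.62 and 4.64 in DFAT cells, where it was at the background level (difference -1.53, SE 0.22, adjusted p = 0.000798). Stat3, a factor of interleukin 6 and leptin signalling, read 10.40, 11.00 and 10.76 in AC against 9.57, 9.51 and 9.54 in DFAT cells (difference -1.18, SE 0.17, adjusted p = 0.000982). Stat5a and Stat5b, which growth hormone and prolactin activate, were both lower. For Stat5a the AC arrays had 8.79, 9.81 and 9.85 and the DFAT arrays 6.82, 6.82 and 6.93 (difference -2.62, SE 0.28, adjusted p = 0.000156). For Stat5b they had 8.85, 8.74 and 8.79 against 7.55, 7.71 and 7.73 (difference -1.13, SE 0.13, adjusted p = 0.000227). Stat6, the factor of interleukin 4, was higher in DFAT cells by 0.52 (SE 0.13, adjusted p = 0.0152), with 9.34, 9.56 and 9.50 in AC, compared with 9.88, 10.04 and 10.05 in DFAT cells. Stat4 was at the background level in both groups (difference -0.59, adjusted p = 0.153). The Stat6 call was lost without DFAT replicate 2 or 3 (adjusted p = 0.0702 and 0.0707), and centred on the reference genes, where 5 STAT genes were lower and 0 higher, Stat6 was at -0.12. Centred on the hybridization controls 2 were lower, since Stat3 (adjusted p = 0.0892) and Stat5b (adjusted p = 0.0504) did not pass.

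Upstream of these factors, a list of 17 interferon receptors, kinases and inhibitors of their signal had a median of -0.27. Of these, 6 were lower (35.3%, against 23.8% of all genes) and 3 higher (17.6%, against 22.6% of all genes). Ifnar1, a chain of the type I receptor, differed by 0.08 (95% interval -0.20 to 0.36, adjusted p = 0.644), whereas its partner Ifnar2 was lower by a difference of -1.16 (adjusted p = 0.00021, and 0.0552 when centred on the hybridization controls). Both chains of the interferon gamma receptor were higher in DFAT cells, although Ifngr1 was at 0.10 and did not pass when centred on the reference genes (adjusted p = 0.586). Ifngr1 read 9.48, 9.27 and 9.21 in AC against 10.11, 10.07 and 10.02 in DFAT cells (difference 0.75, SE 0.13, adjusted p = 0.00269), and Ifngr2 read 6.99, 7.94 and 7.54 against 9.33, 9.30 and 9.33 (difference 1.83, SE 0.23, adjusted p = 0.000408). Of the kinases, Jak2 was higher by 1.21 (adjusted p = 0.00053), and Jak1 (-0.25) and Tyk2 (0.02) did not pass. The feedback inhibitors Usp18, Socs3 and Cish, which the signal itself induces, were lower by differences of -4.99, -3.65 and -2.54 (adjusted p = 3.5e-07, 1.25e-05 and 0.000362). Without AC replicate 1 the list had 9 lower and 4 higher genes, centred on the reference genes 12 and 2, and centred on the hybridization controls 3 and 4, with a median of 0.19.

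Sensors of foreign nucleic acid and their adaptors start interferon production. Of 17 such genes with a probe set, 6 were lower (35.3%, against 23.8% of all genes) and 4 higher (23.5%, against 22.6% of all genes), with a median of -0.28. The lower genes were the RNA helicases Dhx58 (-2.76) and Ddx58 (-1.98), the ubiquitin ligase Trim25 (-2.10), the receptor Tlr3 (-2.56), the nucleic acid sensor Zbp1 (-1.42) and the adaptor Myd88 (-1.13). The value of Tlr3 came from a probe set that may read several transcripts, and without such probe sets Tlr3 was at -0.56 and did not pass (adjusted p = 0.0703). The member Ifih1, also an RNA helicase, read 8.78, 9.50 and 9.69 in AC, compared with 7.20, 7.18 and 7.12 in DFAT cells (difference -2.16, SE 0.23, adjusted p = 0.000165). The higher genes were the DNA sensor Cgas (1.53), Sting1 (0.75), the kinase Tbk1 (0.90) and the adaptor Ticam1 (0.76). Without AC replicate 1, 9 were lower and 4 higher, and without DFAT replicate 3 only 2 were higher. Centred on the reference genes 12 were lower and 1, Cgas, was higher, and with the hybridization controls as the base 6 and 5 genes were lower and higher, at a median of 0.18.

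Among the effectors, the IFIT and other interferon-induced genes had 8 of 14 members lower and 2 higher, with a median of -1.32. Ifi27l2a, a small mitochondrial membrane protein, read 13.61, 13.52 and 13.63 in AC against 6.64, 6.49 and 6.66 in DFAT cells. The arrays of each group lay within a narrow range, and the difference was -6.99 (SE 0.13, adjusted p = 4.15e-08). Ifit1, which binds viral RNA that lacks a methylated cap, read 8.42, 9.92 and 9.96 in AC, compared with 3.26, 3.74 and 3.76 in DFAT cells (difference -5.85, SE 0.40, adjusted p = 1.32e-05). Ifit3, its partner, read 9.16, 10.10 and 10.06 against 5.35, 4.78 and 4.92 (difference -4.76, SE 0.28, adjusted p = 5.71e-06). Both had DFAT values at the background level, and in both the lowest AC value was that of replicate 1. Ifit2, of the same family, read 6.97, 7.72 and 7.55 in AC against 7.12, 7.03 and 6.96 in DFAT cells, where the groups overlapped and the difference of -0.37 did not pass (95% interval -0.84 to 0.09, adjusted p = 0.188). Without AC replicate 1 it was -0.59 and passed (adjusted p = 0.0049). The 2 members that were higher were Ifi27l2b (1.58, adjusted p = 0.000124), on a probe set that may read related transcripts, and Ifi30, a lysosomal reductase of antigen processing (0.43, adjusted p = 0.0358). Centred on the reference genes Ifi30 was at -0.22 and the role had 12 lower and 1 higher member, and 1 was also the higher count without AC replicate 2 or without any of the DFAT replicates.

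The oligoadenylate synthetases, which make the messenger that activates RNase L, had 6 of 10 members lower and 0 higher, with a median of -0.91. Oasl2 read 7.79, 7.39 and 7.90 in AC, compared with 3.56, 3.46 and 3.38 in DFAT cells (difference -4.23, SE 0.17, adjusted p = 7.14e-07). Oasl1 read 6.66, 8.51 and 8.70 in AC against 5.46, 4.89 and 5.31 in DFAT cells (difference -2.73, SE 0.50, adjusted p = 0.00301), and the low AC value was that of replicate 1. Oas1a, whose promoter is printed above, read 8.41, 8.51 and 9.06 in AC against 6.23, 5.92 and 5.80 in DFAT cells (difference -2.68, SE 0.21, adjusted p = 2.84e-05). In 5 of the 10 members all 6 arrays were at the background level. All 10 were lower when centred on the reference genes, and 4 when centred on the hybridization controls.

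The guanylate-binding proteins, GTPases that interferon gamma induces, had 5 of 6 members lower and 0 higher, and all 6 were at the background level on the DFAT arrays. Gbp2 read 10.81, 11.15 and 11.41 in AC, compared with 4.10, 3.33 and 3.30 in DFAT cells. Its difference of -7.55 (SE 0.25, adjusted p = 3.56e-07) placed it at rank 39 among the decreases of all genes. Gbp3 read 9.21, 10.36 and 10.14 in AC against 3.51, 4.19 and 4.09 in DFAT cells (difference -5.98, SE 0.32, adjusted p = 3.4e-06), and Gbp6 read 8.97, 9.54 and 9.63 against 3.75, 3.40 and 3.49 (difference -5.84, SE 0.20, adjusted p = 4.09e-07). Gbp7 was highest on AC replicate 1, with 10.22, 9.57 and 8.81 in AC, compared with 4.41, 4.29 and 4.16 in DFAT cells (difference -5.24, SE 0.32, adjusted p = 7.23e-06). Because DFAT values lay at the background level, these differences show a gap between signals whose lower end is set by the array and not by a measured amount of RNA. Gbp2b and Gbp8 were at the background level in both groups, at -0.52 (adjusted p = 0.0689) and -0.66 (adjusted p = 0.0166).

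**Figure D2:**
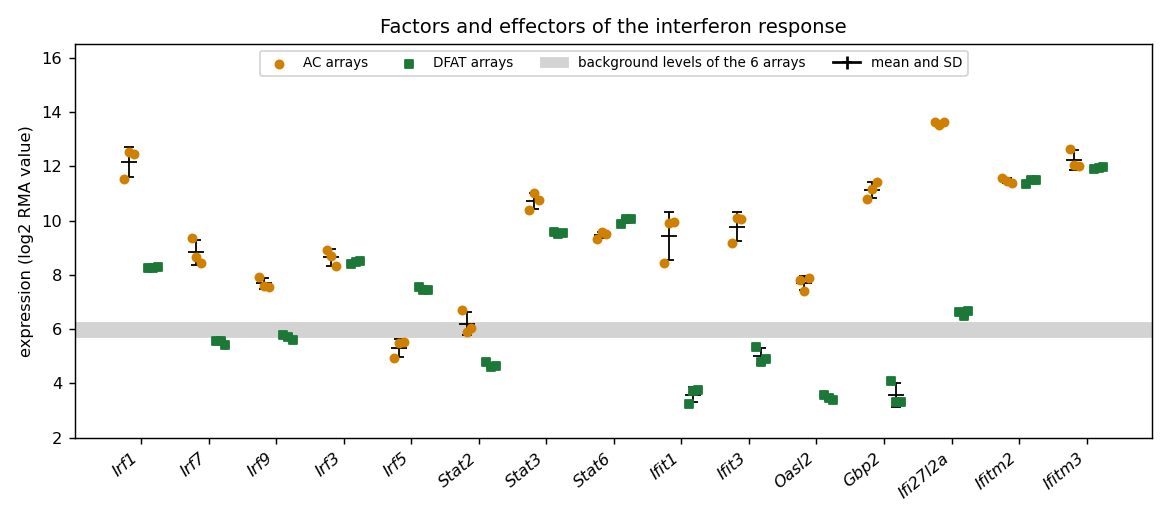
Expression (vertical axis, log2 RMA value) of 15 members on each of the 3 AC and 3 DFAT arrays (points, with the mean and SD), with the range of the arrays' background levels in grey. Irf7, Irf9, Stat2, Ifit1, Ifit3, Oasl2 and Gbp2 lie within or below the grey band in DFAT cells and higher in AC, Irf5 lies below the band in AC and above it in DFAT cells, and the groups of Irf3 and Ifitm2 overlap.

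The IFITM proteins, which hinder the entry of viruses, had 4 members that did not pass, among them Ifitm2 and Ifitm3. Ifitm2 read 11.58, 11.47 and 11.38 in AC against 11.36, 11.48 and 11.50 in DFAT cells, so that the groups overlapped (difference -0.03, 95% interval -0.33 to 0.27, adjusted p = 0.874). Ifitm3 read 12.64, 12.06 and 12.00 against 11.89, 11.93 and 11.95 (difference -0.31, 95% interval -0.75 to 0.13, adjusted p = 0.246). Both depended on the scaling, at -0.68 and -0.95 and past the test when centred on the reference genes, and at 0.43 and 0.16 and not past it when centred on the hybridization controls. Ifitm1 was lower, with 7.79, 6.90 and 7.30 in AC, compared with 4.79, 4.43 and 4.41 in DFAT cells (difference -2.79, SE 0.23, adjusted p = 4.45e-05). Ifitm6 (-1.17, adjusted p = 0.0343) and Ifitm7 (-0.60, adjusted p = 0.00807) also passed, with every array at the background level. The family thus had 3 of 7 lower (42.9%, against 23.8% of all genes) and 0 higher. It had 7 lower when centred on the reference genes and 1 when centred on the hybridization controls. Ifitm6 did not pass when any array other than AC replicate 1 was left out (adjusted p from 0.0627 to 0.120).

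The p200 family, proteins that bind DNA and are abundant in myeloid cells, had 3 of 6 members lower (50%, against 23.8% of all genes) and 0 higher. Ifi207 read 3.96, 6.87 and 6.32 in AC against 2.79, 2.57 and 2.70 in DFAT cells (difference -3.03, SE 0.65, adjusted p = 0.00702, and -3.91 without AC replicate 1). Ifi209 read 4.35, 5.65 and 5.68 in AC, compared with 3.47, 3.33 and 3.43 in DFAT cells, all of them at the background level (difference -1.82, SE 0.34, adjusted p = 0.00336). Ifi213 was at the background level on every array too, at -0.73 (adjusted p = 0.00929). The mean of the family was 4.41 on AC replicate 1, below the 5.27 and 5.30 of replicates 2 and 3, the same order as the macrophage markers. Centred on the reference genes 5 were lower.

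Among the MHC class I heavy chains, the classical chains H2-K1 and H2-D1 and the nonclassical H2-Q10 had the largest differences. H2-K1, a classical chain that presents peptides to cytotoxic T cells, read 13.59, 13.70 and 13.80 in AC against 9.35, 9.38 and 9.30 in DFAT cells. That difference of -4.35 (SE 0.13, adjusted p = 1.93e-07) was about 20.4-fold, and on this probe set DFAT values stayed well above the background level. The other H2-K1 probe sets had DFAT means of 7.76, 5.93 and 4.13, the last at the background level. H2-D1, the other classical chain measured, read 13.68, 13.64 and 13.74 against 9.44, 9.55 and 9.34 (difference -4.25, SE 0.13, adjusted p = 2.14e-07). All 4 probe sets of H2-K1 were lower, from -5.85 to -4.07, and all 9 of H2-D1, from -4.62 to -0.46. H2-Q10, a secreted chain known from liver, read 9.45, 8.97 and 9.06 in AC, compared with 3.91, 3.97 and 3.49 in DFAT cells (difference -5.37, SE 0.19, adjusted p = 4.54e-07). Class I genes resemble each other closely, and 22 of the 46 probe sets with an H2- symbol are of a type that may read several transcripts, so the share of each gene in a value is uncertain.

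Of the 12 heavy chain genes, 6 were lower (50%, against 23.8% of all genes) and 1 was higher (8.33%, against 22.6% of all genes). In both groups 6 were at the background level. The higher one was H2-M9, of the M region, with 5.42, 4.83 and 6.14 in AC, at the background level, and 7.75, 7.58 and 7.71 in DFAT cells (difference 2.22, SE 0.30, adjusted p = 0.000605). H2-M3, which presents formylated peptides of bacteria, read 8.36, 7.44 and 7.70 in AC against 7.21, 7.29 and 7.08 in DFAT cells and did not pass (difference -0.64, adjusted p = 0.0624). The reference genes as the base gave 11 lower heavy chain genes.

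The genes that carry and complete class I were lower without exception. B2m, the light chain that every class I heavy chain needs, read 14.21, 14.33 and 14.25 in AC, compared with 12.11, 12.01 and 12.08 in DFAT cells (difference -2.20, SE 0.12, adjusted p = 4.45e-06). Its DFAT values were far above the background level, and its other probe set gave -2.25. Tap1 and Tap2 form the pump that brings peptides into the endoplasmic reticulum. Tap2 read 8.60, 8.17 and 8.37 in AC against 5.26, 5.07 and 4.97 in DFAT cells, at the background level (difference -3.28, SE 0.16, adjusted p = 2.2e-06). Tap1 read 9.11, 8.60 and 8.53 against 5.45, 5.89 and 5.66 (difference -3.08, SE 0.20, adjusted p = 1.01e-05), and its 3 other probe sets did not pass.

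A list of 22 further genes of antigen processing and presentation had 14 lower and 4 higher, with a median of -1.33. Psmb8, a catalytic subunit of the immunoproteasome, which cuts peptides for class I, read 10.40, 9.78 and 10.02 in AC, compared with 4.81, 4.43 and 4.61 in DFAT cells (difference -5.45, SE 0.19, adjusted p = 4.11e-07). Its fellow subunit Psmb9 had a difference of -5.08 and tapasin, Tapbp, -2.37. Nlrc5, the transactivator of class I genes, read 8.53, 7.98 and 8.08 in AC against 3.80, 3.21 and 3.48 in DFAT cells (difference -4.70, SE 0.21, adjusted p = 1.28e-06). Of the chaperones of the endoplasmic reticulum that fold class I chains, 3 were higher, with Pdia3 at 1.55 and Canx at 0.99 (adjusted p = 0.000156 and 0.000583), and Calr rose likewise, from a mean of 11.79 to one of 12.79 (adjusted p = 0.000463). With the reference genes as the base Calr was at 0.36 and did not pass (adjusted p = 0.0713) and Canx was at 0.34 (adjusted p = 0.0455). Hspa5, another chaperone of the list, did not pass (0.68, adjusted p = 0.0563). The largest difference of the list was that of Cd1d1, which presents lipids to natural killer T cells, at -7.68 (SE 0.22, adjusted p = 1.77e-07), from 12.48, 13.00 and 12.86 in AC to 5.26, 4.69 and 5.35 in DFAT cells. Ctss followed at -5.93, and was at -6.84 without AC replicate 1.

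**Figure D3:**
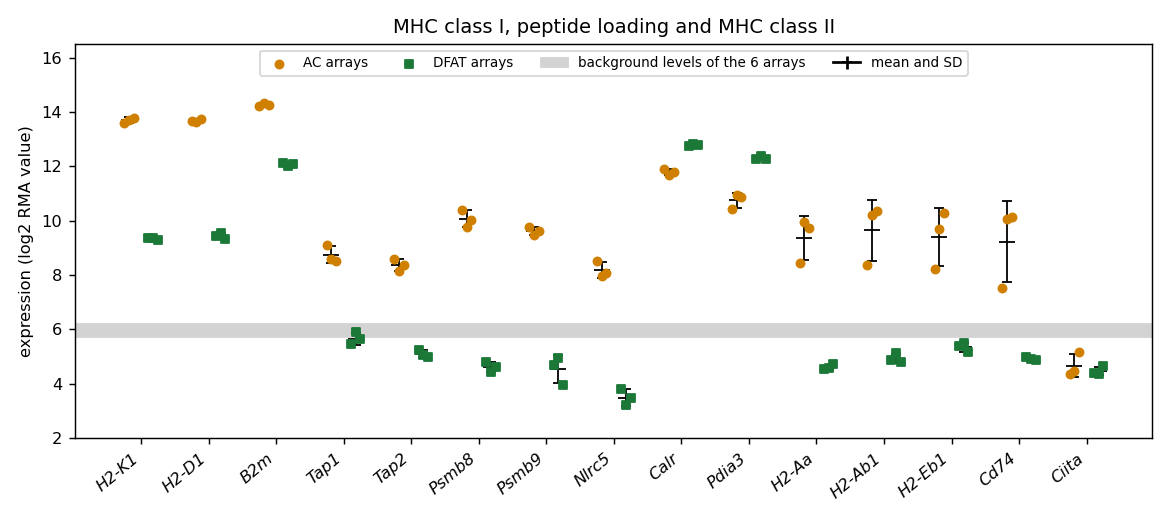
Expression (vertical axis, log2 RMA value) of 15 genes of class I, peptide loading and class II on each of the 3 AC and 3 DFAT arrays (points, with the mean and SD), with the range of the arrays' background levels in grey. H2-K1, H2-D1 and B2m stay above the grey band in DFAT cells, Calr and Pdia3 are higher there, and AC replicate 1 is the lowest AC point of H2-Aa, H2-Ab1, H2-Eb1 and Cd74.

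MHC class II chains were lower in 8 of 9 members, where 23.8% of all genes were lower, and higher in 0. In DFAT cells 8 of 9 were at the background level. Among the lower ones, H2-DMb2, H2-Oa and H2-Ob were at the background level in AC as well. H2-Aa, an alpha chain, read 8.45, 9.93 and 9.73 in AC, compared with 4.54, 4.59 and 4.71 in DFAT cells (difference -4.76, SE 0.35, adjusted p = 2.25e-05). H2-Ab1, its beta chain, read 8.36, 10.23 and 10.35 against 4.86, 5.12 and 4.80 (difference -4.72, SE 0.48, adjusted p = 0.000129). H2-Eb1 read 8.21, 9.69 and 10.28 against 5.40, 5.49 and 5.16 (difference -4.04, SE 0.46, adjusted p = 0.000245). In all 3 the array of AC replicate 1 was below the other AC arrays and above every DFAT array, and without it the differences were -5.22, -5.36 and -4.64. Cd74, the invariant chain that escorts class II, was lowest on the same AC array, with 7.51, 10.07 and 10.12 in AC against 4.99, 4.91 and 4.86 in DFAT cells (difference -4.31, SE 0.63, adjusted p = 0.000927).

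The mean of the macrophage markers was lowest on AC replicate 1, as was that of the class II chains (6.10, against 6.77 and 6.98). Gene by gene, 17 of 18 macrophage markers and 4 of 9 class II chains, H2-Aa, H2-Ab1, H2-Eb1 and H2-DMa, were lowest on that AC array. Of the other chains, H2-DMb2, H2-Oa and H2-Ob were at the background level in AC. H2-Eb2 (5.93 to 6.10 in AC) and H2-Ea lay close to it, so their order among the AC arrays says little. The mean of the IFIT and other effectors was lowest there too (8.09, against 8.45 and 8.56). So was that of the interferon regulatory factors (7.78, against 8.06 and 8.01). The OAS and p200 families, the guanylate-binding proteins and the genes that are not effectors by name also had their lowest AC mean there. The class I heavy chains (7.15) and the peptide transport and light chain genes (10.64) were highest there. The STAT factors and the IFITM family had their lowest AC mean on replicate 2. A low AC replicate 1 was thus not particular to class II chains and the p200 family. In DFAT cells 16 of the 18 macrophage markers were lower. Of the lymphocyte and dendritic cell markers 13 of 16 were at the background level in AC and 15 of 16 in DFAT cells, and 5 were lower in DFAT cells, with means of 4.57 to 4.84 in AC against 4.19 to 4.26 in DFAT cells. The part of these cells in the class II values was not tested. Ciita, the transactivator of class II genes, was at the background level in both groups (difference -0.19, 95% interval -0.71 to 0.33, adjusted p = 0.550). H2-Ea, a chain that some mouse strains lack, ranged from 6.11 to 6.60 in AC, reached 6.12 in DFAT cells and did not pass (difference -0.28, adjusted p = 0.206). H2-DMa, which helps load peptides on class II, was lower by a difference of -1.36 (adjusted p = 0.0229). Centred on the hybridization controls 3 class II chains, H2-Aa, H2-Ab1 and H2-Eb1, were lower.

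**Figure D4:**
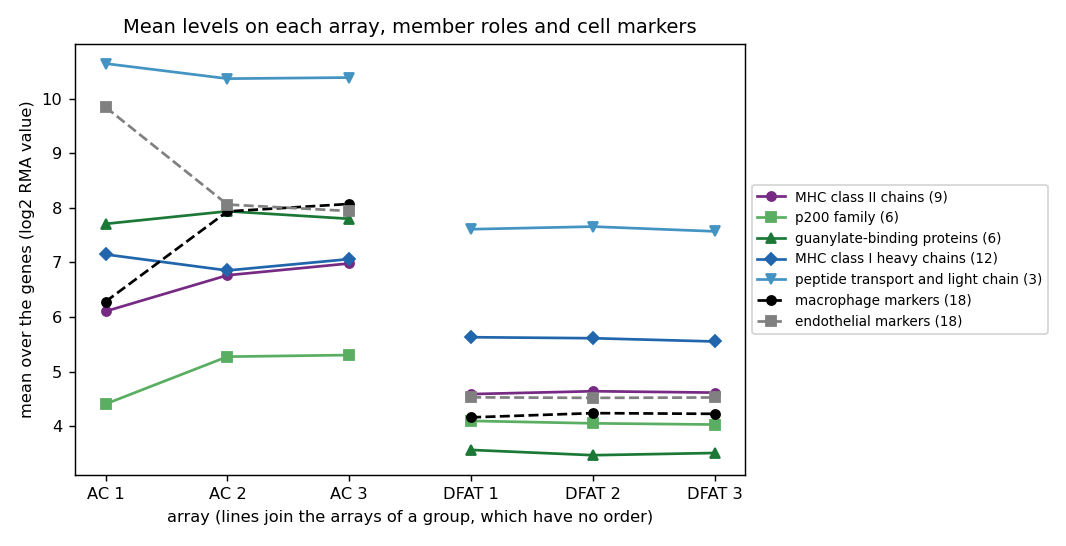
Mean expression (vertical axis, log2 RMA value) of 5 member roles (solid lines) and of macrophage and endothelial markers (dashed lines) on each array (horizontal axis), with the number of genes in brackets. AC replicate 1 is the lowest AC array for macrophage markers (6.28), class II chains (6.10) and the p200 family (4.41). It is the highest for endothelial markers (9.84) and for peptide transport and light chain (10.64). The lowest AC mean of other roles named in the text, not all of them drawn, also lies on this array.

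The rule also took 6 genes whose symbols fell into none of the roles above and which are not interferon effectors by name. Among them H2-D4, whose symbol was not listed among the class I heavy chains, was at the background level in both groups (difference -0.21, adjusted p = 0.574). H2-Ke6, a dehydrogenase encoded in the MHC region, was lower in DFAT cells, with 8.95, 9.36 and 9.13 in AC against 6.26, 5.82 and 5.85 in DFAT cells (difference -3.17, SE 0.18, adjusted p = 4.63e-06). Isg20l2, a nuclease of ribosome formation, was higher, with 7.02, 7.27 and 7.53 against 9.18, 9.08 and 9.20 (difference 1.88, SE 0.16, adjusted p = 4.63e-05). Irf2bpl was higher by 1.22 (adjusted p = 0.000224), on a probe set that may read related transcripts, and its probe set without that limit differed by 0.41 and did not pass (adjusted p = 0.0580). Centred on the reference genes 4 of these 6 were lower and 2 higher.

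Outside the name rule, a list of 40 other interferon-induced genes had 31 lower and 2 higher in DFAT cells, with a median of -2.35. Cxcl10, a chemokine that attracts activated T cells, read 10.11, 12.71 and 12.85 in AC, compared with 3.43, 3.10 and 2.95 in DFAT cells (difference -8.73, SE 0.66, adjusted p = 2.37e-05). Cxcl9, which binds the same receptor, read 10.75, 12.16 and 12.26 against 4.02, 3.47 and 3.47 (difference -8.07, SE 0.39, adjusted p = 2.14e-06). For both chemokines AC replicate 1 was the lowest AC array, and the DFAT arrays were below the background level. Iigp1, a GTPase of vacuole defence, showed no such gap within AC, with 11.30, 11.71 and 11.50 in AC against 4.08, 4.02 and 4.02 in DFAT cells (difference -7.46, SE 0.15, adjusted p = 5.4e-08). The 2 higher genes were Pml, the scaffold of nuclear bodies, at 1.69 and Zc3hav1, an antiviral RNA-binding protein, at 0.90 (adjusted p = 2.28e-05 and 0.000636), of which Zc3hav1 did not pass when centred on the reference genes (0.26, adjusted p = 0.136). Over the 4 lists outside the rule, the median was -1.16. Of 95 genes, 56 were lower (58.9%, against 23.8% of all genes) and 13 higher (13.7%, against 22.6% of all genes). Centred on the reference genes, 75 were lower and 7 higher.

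**Figure D5:**
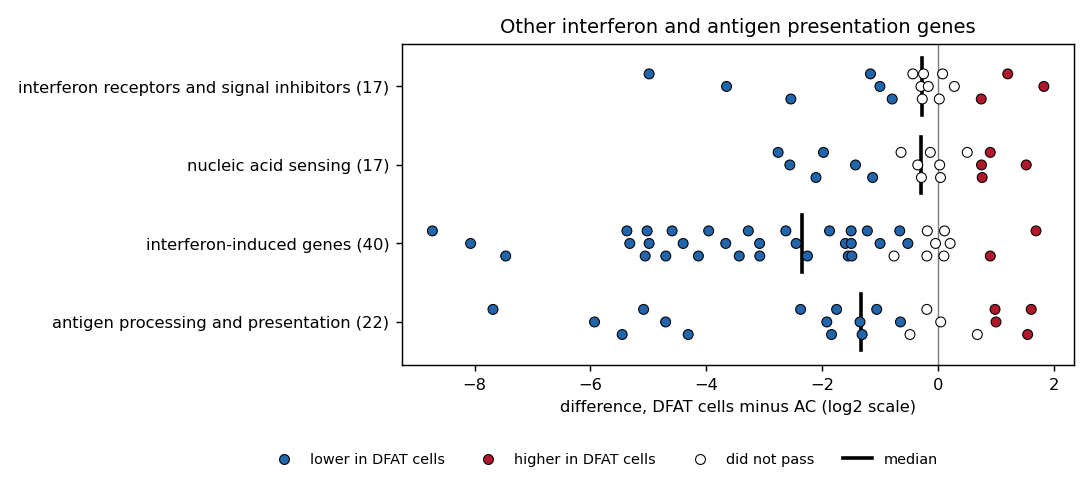
Log2 difference between DFAT cells and AC (horizontal axis) of the genes of 4 lists outside the name rule (vertical axis, with the number of genes), with 1 point per gene, filled where it passed the test, and a bar at the median. The interferon-induced genes have a median of -2.35 and reach -8.73 for Cxcl10, whereas the receptor and sensing lists have medians of -0.27 and -0.28 with calls on both sides.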

How the data were processed

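The data were the values of 6 Affymetrix GeneChip mouse arrays, 3 of AC and 3 of DFAT cells, grouped by the sample titles. The authors deposited log2 values after RMA, which corrects the background, brings arrays to one distribution and summarizes each probe set, so saturation and scanner background were not examined. Fold differences at the low end are compressed by that step. The 64 control probe sets were left out and 45037 were tested with limma 3.58.1 under R 4.3.3 (lmFit, then eBayes), with two-sided p-values adjusted over all of them by Benjamini-Hochberg, a threshold of 0.05 and no filter. Differences are DFAT cells minus AC, with SE and 95% intervals from that fit. The number of arrays limits the precision.

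Genes were named from the platform annotation: 34945 probe sets have 1 symbol, 932 several and 9160 none. All 143 member probe sets were found by Entrez ID in RefSeq. Each gene was represented by the probe set of highest mean signal. Of 31 members with several probe sets, 21 had the same call on all and 0 had opposite calls. Family members without a probe set of their own were not analysed here.

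A probe set is at the background level in a group when at or under, on all 3 arrays, the 95th percentile of a set of 112 probe sets for 83 genes known from sperm, retina, lens and other sense organs. This is no detection call. The reference genes are 10 genes and the hybridization controls 18 probe sets, and each array was centred on their mean in the alternatives. These centrings moved the median difference of all probe sets from -0.06 to -0.71 and to 0.40, so a change of scaling moves every difference by that amount. Probe sets ending in _x_at or _s_at, 34 of the 143, may read several transcripts.

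Named were, in each role and list, the 3 genes with the largest difference past the test without overlap between groups (for the lists, past the test), all STAT and peptide transport genes, and H2-K1, H2-D1, H2-Aa, H2-Ab1, H2-Eb1, Irf1, Irf3, Irf7, Irf9, Isg15 and Ifit1. Other genes were named, and promoters to print chosen, after their values were seen. The members, lists, tests and alternatives were chosen with earlier results of these data known. The fit was tested on simulated data. Tables and figures were made in Python 3.11.15 (numpy 2.4.6; pandas 2.3.3; matplotlib 3.10.9).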

Additional observations from a re-analysis of the deposited data

How the results depend on the processing

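The counts of member genes kept their direction under all alternatives run. Centred on the reference genes, 128 member probe sets were lower and 5 higher, 79 member genes were lower, and 7 genes of the lists outside the rule were higher. Stat6 was then at -0.12. The same centring moved the median difference of all probe sets from -0.06 to -0.71. The share of all genes called under it is not given here, so the larger counts of lower members, also those by role, include that common shift. By the methods' fold rule of at least 4-fold, without a test, 49 member probe sets were lower and 2 higher, 30 member genes were lower and 2 higher, and of the genes outside the rule 33 were lower and 0 higher. Leaving out each array in turn gave 74 to 90 lower and 5 to 10 higher member probe sets (5 without DFAT replicate 3), 45 to 57 lower and 5 to 7 higher member genes, and 52 to 64 lower and 11 to 16 higher genes outside the rule. Member genes lower in DFAT cells numbered 36 when centred on the hybridization controls, 43 among the brighter probe sets alone and 70 with values raised to the background level, a floor that itself differs between arrays. By role, the brighter probe sets alone gave 0 lower p200, 1 lower IFITM and 5 lower class II genes, with fewer genes tested, and the floor gave 10 lower OAS, 5 lower IFITM and 11 lower class I genes and 12 lower sensing genes. The floor was 5.98 to 6.22 on the AC arrays and 5.73 to 5.87 on the DFAT arrays. A gene under it on every array took the floor's own difference, which passed, as for Stat4 (-0.29, adjusted p = 0.0175). The p200, IFITM, class I heavy chain and sensing medians were also -0.29 with the floor. The larger counts of lower genes with the floor therefore include this step. Apart from it and the smaller number tested, the causes of these moves were not tested. With the replicate number as a replicate block 52 member genes were lower and 6 higher. Arrays of the same number did not deviate together over the probe sets (correlations of -0.02, -0.03 and 0.01). With 3 arrays per group this cannot show whether the numbers pair the arrays, which the sources do not state. Of 842 values of 50 named genes over 17 alternatives, 821 kept direction and side of the threshold, 16 no longer passed, 4 newly passed and 1 reversed. Tlr3 was at -0.56 (adjusted p = 0.0703) without probe sets ending in _x_at or _s_at. Values at the background level, in DFAT cells for 52 of 87 member genes, limit how far a decrease can be followed.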

Other observations

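A further 25 probe sets carry several symbols of which at least 1 meets the name rule, and they were left out above because the gene cannot be told. Of these, 12 were lower in DFAT cells, 0 were higher and 13 did not pass, with a median difference of -0.77, and 19 were lower without AC replicate 1. The probe set of H2-Q9 and H2-Q7, nonclassical class I chains, had a mean of 10.37 (SD 0.39) in AC, compared with 3.37, 2.78 and 3.29 in DFAT cells (difference -7.23). That of Isg15, a ubiquitin-like modifier, which also lists Gm9706, read 7.01, 8.60 and 8.59 in AC against 5.57, 5.43 and 5.22 in DFAT cells (difference -2.66), lowest in AC on the array of replicate 1.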
